A study of Rattus norvegicus with 12 samples.

Results

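Mixed glial cultures from neonatal rat brain were given Th1 cytokines or monocyte/macrophage (M/M) cytokines for 6 hours, and their early gene expression was set side by side. The Th1 and M/M arrays make up 6 of the 12 Affymetrix rat arrays, 3 for each mixture, and were chosen by the ending of the sample titles. Each of 3 experiments used its own cultures and had 1 control, 1 Th1, 1 M/M and 1 Th2 array, so that a Th1 array has an M/M array of the same experiment as its partner. The Th1 mixture held recombinant rat IL-2, interferon-gamma, TNF-alpha and G-CSF. The M/M mixture held recombinant rat IL-1alpha, IL-1beta, IL-12p40 and TNF-alpha per the sample labels, while the methods also name IL-6. The concentration of each cytokine was 10 ng/ml. The defined medium contained 2% fetal bovine serum, and control cultures received it alone. TNF-alpha was thus present on both sides, and the question was which genes separate a mixture with interferon-gamma, IL-2 and G-CSF from one with the IL-1 cytokines. The cultures were obtained by a shake-off technique and hold several glial cell types, and in RNA from whole cultures fewer cells of a type cannot be told apart from less RNA per cell.

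Interferon-gamma acts through its receptor and the JAK kinases on genes with GAS elements, among them that of IRF1. IRF1 and related factors then bind interferon-stimulated response elements (ISRE) and raise the genes of antigen presentation and of antiviral defence. IL-1 and TNF-alpha act through different receptors but share a path to NF-kappaB. With AP-1 and C/EBP factors, NF-kappaB raises chemokines, cytokines, acute phase proteins, matrix proteases and cyclooxygenase 2 in astrocytes and microglia.

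Values below are the deposited signals on their linear scale, given for experiments 1, 2 and 3 in that order. Differences are log2 of the Th1 signal minus log2 of the M/M signal of the same experiment. The median signal of the Th1 arrays was 57.0, 61.0 and 24.5, and that of the M/M arrays was 60.9, 57.9 and 42.2. The median difference over all 8740 probe sets was accordingly −0.04 and 0.11 in experiments 1 and 2 and −0.67 in experiment 3. The number of arrays limits the precision.

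The arrays of experiment 3 went against their labels, and this bears on every result. Cd74, the invariant chain of MHC class II and a target of interferon-gamma, had signals of 989, 344 and 3.7 in the Th1 arrays and 49, 10.5 and 1379.7 in the M/M arrays, against 41, 5.11 and 4.1 in control cultures (probe set X13044_g_at). Cxcl10, an interferon-inducible chemokine that draws T cells, had signals of 3640.4, 1874 and 23.8 in the Th1 and 840.1, 207 and 5626 in the M/M arrays, against 31.9, 20.9 and 181 in control cultures. In experiment 3 it was thus the array labelled M/M that carried high signals of both genes, while the array labelled Th1 had no more than the control array. The Th2 mixture holds neither IL-1 nor TNF-alpha. Nevertheless the array labelled Th2 in experiment 3 had a signal of 2345 for the chemokine Ccl20, 2145 for Il1b and 499 for the neutrophil chemokine Cxcl2, against 66.7, 53.4 and 31.2 in the control array of that experiment. Arrays were kept in the groups their labels give. Signals are given for all 3 experiments, and the main counts and differences with and without experiment 3.

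The experiments can be compared over the 3002 probe sets with a mean signal over 100. Across these probe sets, which share arrays and are not independent replicates, the Th1 minus M/M differences of experiments 1 and 2 had a correlation of 0.50. The correlation was −0.285 between experiments 1 and 3 and −0.148 between experiments 2 and 3. Of all probe sets, 82 (0.938%) were more than 2-fold higher with Th1 than with M/M cytokines in both experiments 1 and 2, and 68 of these (82.9%) had the opposite sign in experiment 3, as did 82.3% of all probe sets higher in both experiments. On the other side, 56 probe sets (0.641%) were more than 2-fold lower with Th1 cytokines in both experiments, and 8 of them (14.3%) had the opposite sign in experiment 3, against 13.8% of all probe sets lower in both. The shares of both sets were thus near those of the array as a whole, which was shifted towards lower values in experiment 3. The median difference in experiment 3 was −2.12 for the 82 probe sets, −0.64 for all those higher in both experiments, −1.11 for the 56 and −0.80 for all those lower in both. This 2-fold criterion was chosen after the values were seen.

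**Figure D1:**
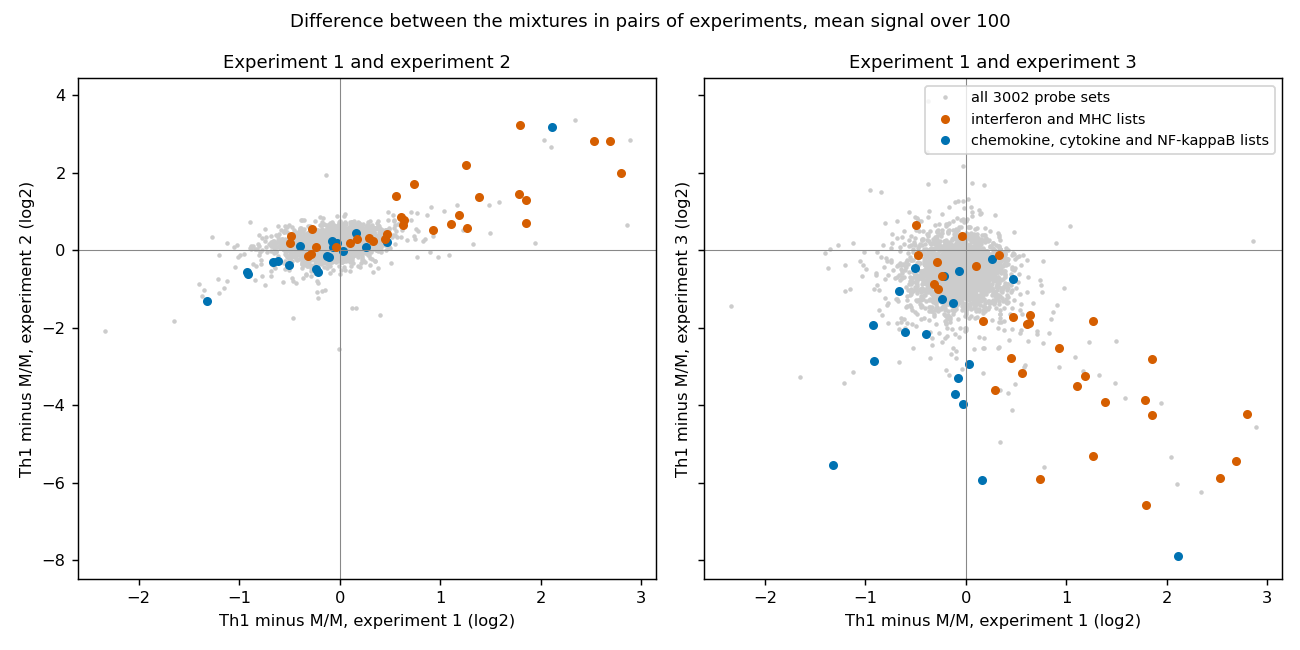
Th1 minus M/M difference (log2) of experiment 1 on the horizontal axis against that of experiment 2 (left) or experiment 3 (right), 1 point for each of the 3002 probe sets with a mean signal over 100. The genes of the interferon and MHC lists (orange) include some far to the upper right on the left that lie at the lower right on the right, such as Mx1, and the correlations are 0.50 and −0.285.

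With all 3 experiments, limma with experiment as a block called 0 of 8740 probe sets higher and 0 lower with Th1 than with M/M cytokines, and the lowest adjusted p was 0.903. At an unadjusted p under 0.05 there were 21 probe sets higher (0.24%) and 232 lower (2.65%). Without experiment 3, again 0 probe sets were called, with a lowest adjusted p of 0.115, while 196 were higher (2.24%) and 81 lower (0.927%) at an unadjusted p under 0.05. Of all probe sets, 26.1% had a difference above 0 with experiment 3 and 54.2% without it. With each array centred on its median the share was 57.2% with experiment 3. With experiment 3 left out and the arrays centred, a combination chosen after seeing the data, 8 probe sets (0.0915%) were called higher with Th1 cytokines and 1 (0.0114%) lower. These were 2 of Cd74, 2 of RT1-S3, 1 each of Tap1, Irgm2 and Creg1 and 1 without a gene name on the higher side, and Lcn2 on the lower. Without such added settings no gene passed the adjusted test, and genes are therefore described by their values in each array.

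Among the 48 measured genes of the interferon and MHC lists, 32 were higher with Th1 than with M/M cytokines in both experiments 1 and 2, and 4 were lower in both, against 28.9% and 21.4% of all probe sets. Of the 48, 10 were more than 2-fold higher in both experiments and 0 more than 2-fold lower, against 0.938% and 0.641% of all probe sets. Without experiment 3, 23 had an unadjusted p under 0.05 in the direction of Th1 and 0 in that of M/M cytokines. The shares of all probe sets were 2.24% and 0.927%. The median difference of the 48 was 0.72. In experiment 3, 43 of the 48 were lower in the array labelled Th1, against 82.3% of all probe sets, and the median difference was −2.17, against −0.67 over all probe sets.

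Irf1, the transcription factor induced first by interferon-gamma, had signals of 2849.5, 1761 and 116 in the Th1 and 1188, 381 and 4575 in the M/M arrays, and 325, 93.8 and 153 in control cultures (M34253_g_at). In experiments 1 and 2 the Th1 array was 2.4 and 4.62 times as high as its M/M partner. Without experiment 3 the difference was 1.73 (95% interval 1.02 to 2.45, adjusted p = 0.344), and with it −0.61 (SE 1.01). A second probe set, M34253_at, gave the same sign in each experiment but a smaller difference of 0.64 without experiment 3. The M/M arrays of experiments 1 and 2 also lay above their controls for Irf1, so that the mixtures differed in degree.

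The interferon regulatory factor Irf7, which drives type I interferon genes, had signals of 1299, 371 and 28.1 in the Th1 and 224, 52.3 and 1652 in the M/M arrays. Its difference was 2.68 without experiment 3 (95% interval 1.49 to 3.87) and −0.17 with it. Stat2, which with IRF9 is part of the complex that binds the ISRE, had 776, 308 and 52.1 against 215, 125 and 992. Both genes were higher in the Th1 array in experiments 1 and 2 and higher in the array labelled M/M in experiment 3. Irf8, a factor of the myeloid lineage that microglia express, had 576, 717 and 174 against 391, 272 and 1567, a difference of 0.98 without experiment 3 (95% interval 0.16 to 1.79) and −0.40 with it. For Irf8 the control arrays had 546, 241 and 107, so that the Th1 array of experiment 1 lay close to its control. Jak2, a kinase bound to the interferon-gamma receptor, had a difference of 0.0662 without experiment 3 (95% interval −0.59 to 0.72), and −0.77 with it. The difference of Jak2 thus lay near 0 in experiments 1 and 2, where those of Irf7, Stat2 and Irf8 were higher. In experiment 1 the Jak2 signal was 247 in the Th1 array, 248 in its M/M partner and 96.4 in the control array. For experiment 2 these signals were 152, 139 and 56.3. Jak2 therefore lay above its control to a like degree under either mixture in these experiments.

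Promoters of 3 of these genes are shown because they hold the elements through which interferons act, and because the genes were higher together with Th1 cytokines in experiments 1 and 2. The 250 bases before the transcription start are given 5′ to 3′ in the direction of the gene, from RefSeq on build GRCr8. Irf1 lies at chr10:38417685-38417934 on the plus strand, Cxcl10 at chr14:15988816-15989065 on the plus strand and Rsad2, which encodes the antiviral protein viperin, at chr6:48788121-48788370 on the minus strand. Capitals mark the GAS letters TTCNNNGAA in Irf1 and the ISRE letters GAAANNGAAA, searched on both strands, in Cxcl10 and Rsad2.
Irf1: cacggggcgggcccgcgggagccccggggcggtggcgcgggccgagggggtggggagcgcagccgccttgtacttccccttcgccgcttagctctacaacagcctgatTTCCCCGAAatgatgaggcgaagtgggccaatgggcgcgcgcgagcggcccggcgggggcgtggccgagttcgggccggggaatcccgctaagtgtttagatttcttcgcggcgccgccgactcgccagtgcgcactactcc
Cxcl10: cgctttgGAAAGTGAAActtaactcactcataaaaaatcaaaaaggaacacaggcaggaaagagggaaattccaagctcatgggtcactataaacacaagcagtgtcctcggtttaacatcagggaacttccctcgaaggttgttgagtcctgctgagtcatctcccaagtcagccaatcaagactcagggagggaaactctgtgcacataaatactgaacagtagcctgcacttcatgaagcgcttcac
Rsad2: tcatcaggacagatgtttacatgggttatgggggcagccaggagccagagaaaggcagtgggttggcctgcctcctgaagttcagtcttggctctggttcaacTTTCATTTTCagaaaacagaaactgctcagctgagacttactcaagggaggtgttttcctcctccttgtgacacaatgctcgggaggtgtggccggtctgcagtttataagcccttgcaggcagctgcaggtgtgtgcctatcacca

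Over all 33469 promoters of this length, 7.67% held the GAS letters and 3.41% the ISRE letters. Among genes more than 2-fold higher with Th1 than with M/M cytokines in experiments 1 and 2, 46 had a promoter in the table, and 7 of these (15.2%) held GAS and 7 (15.2%) held ISRE. Among genes more than 2-fold lower, 36 had a promoter, of which 0 held GAS, which allows a share of up to 8.33% by counting error, and 3 (8.33%) held ISRE. For all 3879 named genes of the array with a promoter the shares were 6.37% for GAS and 2.73% for ISRE. The groups were chosen by their values and the matches are descriptions of the letters, so no test was made. Irf7, Gbp2, Eif2ak2, Tap1, Tap2, B2m and RT1-S3 also held the ISRE letters in this window, Irf8 and Psmb8 the GAS letters, and Oas1a and Irgm2 held both. Stat2, Mx1, Psmb9, Cd74, RT1-Da and RT1-Ba held neither. Mmp13 and Egr4, which were lower with Th1 cytokines, and the adhesion gene Vcam1 held the ISRE letters, and Icam1 and Dbp held the GAS letters. Egr4 was lower mainly by its dimmer probe set, while a brighter one had a difference of −0.16 without experiment 3.

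All 9 measured interferon-inducible effector genes were higher with Th1 than with M/M cytokines in experiments 1 and 2, against 28.9% of all probe sets. In experiment 3 all 9 were lower in the array labelled Th1, as were 82.3% of all probe sets. The median difference of the list was 1.39, 0.71 and −3.91, against −0.04, 0.11 and −0.67 over all probe sets. Rsad2 had signals of 2949.7, 979.7 and 30.9 in the Th1 and 850.4, 104 and 2926 in the M/M arrays, with 27.3, 33.9 and 151 in control cultures. Mx1, a GTPase that blocks viral replication, had 1895, 464 and 36.9 against 294, 65.1 and 1608. The Th1 arrays of experiments 1 and 2 thus lay 6.44 and 7.12 times above their M/M partners for Mx1. Gbp2, a guanylate binding protein, was also high with M/M cytokines, at 1557, 391 and 2109.9 against 2603, 1281 and 35.4 with Th1, and control cultures had 149, 10.7 and 93.7. Its difference without experiment 3 was 1.23 with an interval that included 0 (−0.29 to 2.74), and with it −1.15. Eif2ak2, the double-stranded RNA kinase PKR, had 431, 193 and 40 against 165, 74.6 and 602. Oas1a, an oligoadenylate synthetase, had a difference of 1.28 without experiment 3 and −0.0787 with it. Mx2 had a difference of 0.89 without experiment 3 (95% interval 0.28 to 1.51) and −0.57 with it. The smallest differences of the list were those of Ifitm3, a membrane protein that hinders viral entry, with 0.72 without experiment 3 (95% interval −0.0109 to 1.46), and of the RNA-editing enzyme Adar, with 0.29 (−0.72 to 1.30). With experiment 3 they were −0.36 for Ifitm3 and −0.41 for Adar. Irgm2, an interferon-inducible GTPase outside the lists and chosen after its values were seen, had 1518, 652 and 65.6 against 369.6, 89.7 and 2634, a difference of 2.45 without experiment 3 (adjusted p = 0.237) and −0.14 with it.

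**Figure D2:**
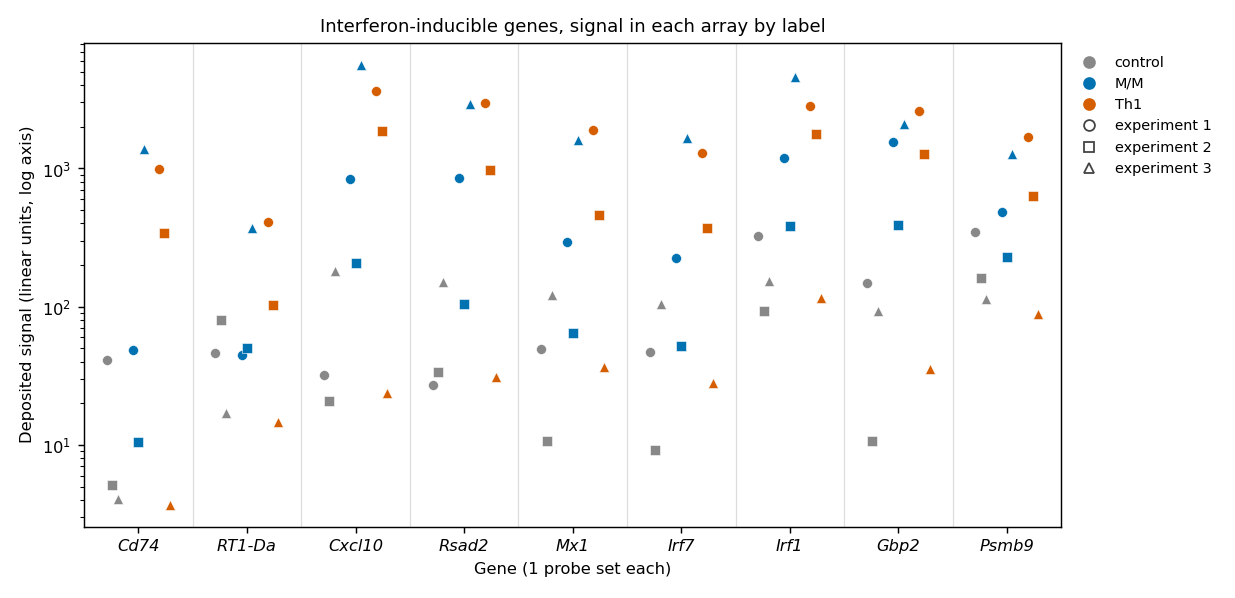
Deposited signal (log axis) of 9 interferon-inducible and MHC genes in the control (grey), M/M (blue) and Th1 (orange) arrays of experiment 1 (circle), 2 (square) and 3 (triangle). For each gene the Th1 arrays of experiments 1 and 2 lie above their M/M partners, whereas in experiment 3 the array labelled M/M lies far above the array labelled Th1, as for Cxcl10 with 5626 and 23.8.

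Among the MHC class II genes, Cd74 stood apart from the rest in experiments 1 and 2. In experiments 1 and 2 Cd74 was 20.2 and 32.9 times as high with Th1 as with M/M cytokines, while the M/M arrays of 49 and 10.5 lay near their controls of 41 and 5.11. Its difference without experiment 3 was 4.69 (95% interval 3.65 to 5.72, adjusted p = 0.115), and 3 further probe sets of the gene had differences of 4.32, 5.11 and 5.11. With all experiments the difference was 0.28 (SE 1.78), since the array labelled Th1 had 3.7 in experiment 3 and the array labelled M/M had 1379.7. RT1-Da, a class II alpha chain, had 413, 104 and 14.8 in the Th1 and 45, 50.4 and 370 in the M/M arrays. In experiment 2 its Th1 signal was close to the control signal of 79.6, so that the M/M array lay below both. RT1-Ba, another alpha chain, had 281, 174 and 8.6 against 100.2, 106 and 237, and again its controls of 113.4, 154 and 36.1 were above the M/M arrays in experiments 1 and 2. Of the 11 class II genes measured, 5 were higher with Th1 cytokines in both experiments and 2 were lower in both, against 28.9% and 21.4% of all probe sets. The list's median difference without experiment 3 was 0.14.

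Of the 19 measured genes of MHC class I presentation, 14 were higher with Th1 cytokines in both experiments 1 and 2, against 28.9% of all probe sets. In experiment 3, 18 of the 19 were lower in the array labelled Th1, against 82.3% of all probe sets. Psmb9, a subunit of the immunoproteasome that cuts peptides for class I, had signals of 1681, 629 and 88.6 in the Th1 and 488, 231 and 1275 in the M/M arrays, and 350.0, 160.3 and 113.1 in control cultures (D10757_g_at). Its difference without experiment 3 was 1.62 (95% interval 1.15 to 2.08) and with it −0.20. Its partner subunit Psmb8 had 863, 321 and 180.1 against 359, 216 and 635, a smaller difference of 0.92 without experiment 3 (95% interval 0.20 to 1.64) and 0.00637 with it. The peptide transporter gene Tap1 has a pair of probe sets that disagreed in size. X57523_g_at gave 1003, 548 and 39.5 in the Th1 and 234, 85.9 and 2574 in the M/M arrays, a difference of 2.39 without experiment 3, whereas the brighter X57523_at gave 0.31. With experiment 3 they gave −0.42 and −0.99. Tap2, the other chain of the transporter, had 389, 97.8 and 42.8 against 225, 24.6 and 359.6. B2m, the light chain of every class I molecule, was bright in all arrays, at 3081, 1548 and 1050.2 in the Th1 and 1975, 893 and 3338 in the M/M arrays, and differed by 0.72 without experiment 3 and −0.0775 with it. RT1-S3, a non-classical class I gene, had 617, 243 and 51 against 88.7, 60.8 and 948, with a difference of 2.40 without experiment 3 (95% interval 1.56 to 3.24) and 0.19 with it, and its probes may also bind RNA of other RT1 genes with a similar sequence.

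The 56 probe sets more than 2-fold lower with Th1 cytokines in experiments 1 and 2 carry 43 gene names, among them chemokines, cytokines, an acute phase gene, matrix proteases and cyclooxygenase 2. Of the 34 measured genes of the chemokine and cytokine lists, 16 were lower with Th1 than with M/M cytokines in both experiments 1 and 2 and 8 were higher in both, against 21.4% and 28.9% of all probe sets, and their median difference without experiment 3 was −0.14. More than 2-fold lower in both experiments were 5 of the 34, which were Ccl20, Cxcl2, Cxcl6, Il1a and Il6, while Cxcl10 and Ccl5 were more than 2-fold higher. The shares of all probe sets were 0.641% and 0.938%. In all 3 experiments 14 of the 34 were lower, against 18.2% of all probe sets. Experiment 3 adds little to this count, since 82.3% of all probe sets were lower in its array labelled Th1. Of all probe sets lower in both experiments 1 and 2, only 13.8% had the opposite sign in experiment 3.

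Ccl20, a chemokine for dendritic cells and lymphocytes that bear CCR6, had signals of 3642, 1652 and 657 with M/M and 1461, 670.3 and 14.1 with Th1 cytokines, and 129, 71.3 and 66.7 in control cultures. The M/M arrays were 2.49, 2.46 and 46.6 times as high as their Th1 partners. Its difference was −1.31 without experiment 3 (95% interval −1.83 to −0.79, adjusted p = 0.344) and −2.72 with it (SE 1.48). The Th1 arrays of experiments 1 and 2 nevertheless lay far above their controls. Cxcl6, which draws neutrophils, had 1449.9, 397 and 98 with M/M and 175, 116 and 18.9 with Th1 cytokines, a difference of −2.40 with all experiments (unadjusted p = 0.0466) and −2.41 without experiment 3. Cxcl2 had 957, 346 and 76.3 against 275, 125 and 13.3, with a difference of −1.63 without experiment 3 (95% interval −2.85 to −0.42) and −1.93 with it. The sign was the same in all 3 experiments for Ccl20, Cxcl6 and Cxcl2, although the arrays of the mixtures overlapped, with low signals in experiment 3 on both sides. In experiment 3 the array labelled Th2 had 2345, 619 and 499 for these genes, above the array labelled M/M. The sign of that experiment thus rests on labels in doubt. Cxcl14 had a difference of −0.67 with all experiments (unadjusted p = 0.0203) and −0.47 without experiment 3.

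Ccl2, Ccl3 and Ccl4 draw monocytes. Ccl2 had 5496, 4393 and 6309 with M/M and 4659.6, 3135 and 2634 with Th1 cytokines, and its difference was −0.36 without experiment 3 (95% interval −1.08 to 0.36) and −0.66 with it. Ccl3 had 914, 524 and 686 against 482, 359 and 182, and for Ccl4 the difference without experiment 3 was −0.14 (95% interval −0.60 to 0.32) and with it −1.33. Ccl5, which draws T cells and monocytes, had the signs of the interferon genes. Its signals were 1960.1, 298 and 2.1 in the Th1 and 736, 71.2 and 3291 in the M/M arrays, with controls of 14.7, 3.93 and 2.2. In experiment 3 the array labelled M/M had 1567 times the signal of the array labelled Th1, which was at the level of its control.

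**Figure D3:**
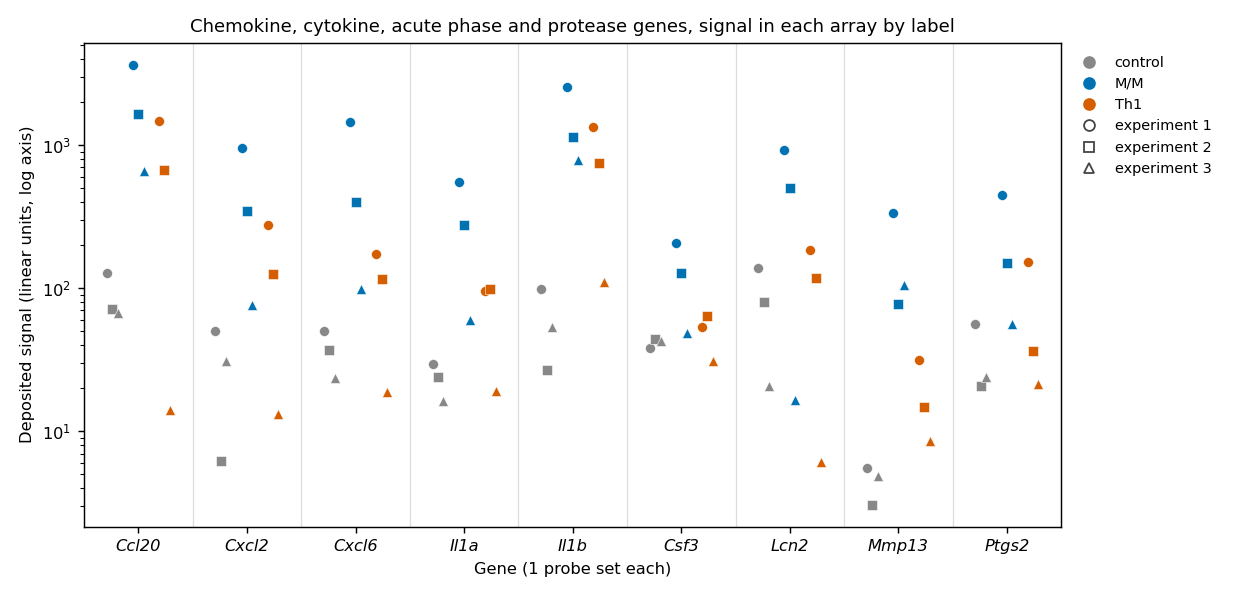
Deposited signal (log axis) of 9 chemokine, cytokine, acute phase and protease genes, with colours for control (grey), M/M (blue) and Th1 (orange) arrays and shapes for the 3 experiments. For each gene the array labelled M/M lies above the array labelled Th1 of the same experiment in 3 of 3 experiments. Mmp13, for instance, had 335, 78.1 and 106 against 31.5, 14.9 and 8.5. The labels of experiment 3 are in doubt. Its array labelled Th2, not drawn here, lay above the array labelled M/M for genes such as Ccl20 (2345 and 657) and Ptgs2 (133.5 and 56.1).

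Il1a, whose product was itself part of the M/M mixture, had signals of 549.9, 277 and 59.6 with M/M and 96.1, 99.3 and 19.1 with Th1 cytokines. Its difference without experiment 3 was −2.00 (95% interval −2.73 to −1.27, adjusted p = 0.298) and with it −1.88. Il1b was high with both mixtures in experiments 1 and 2, at 2544, 1145 and 791 with M/M and 1347, 753 and 110.3 with Th1 cytokines, against 98.5, 26.9 and 53.4 in control cultures. Il6, a cytokine that acts through gp130, had 189, 56.2 and 32.1 against 44, 16.4 and 28.5, and the interval of its difference without experiment 3 included 0 (−4.15 to 0.28). With experiment 3 the difference was −1.35. Csf3, which encodes G-CSF and was thus also the gene of a protein added to the Th1 mixture, had 208, 128 and 48.8 with M/M and 53.2, 63.9 and 30.9 with Th1 cytokines. The Th1 arrays stayed near the control signals of 38.5, 44 and 42.7. Its difference was −1.21 with all experiments (unadjusted p = 0.0413) and −1.48 without experiment 3. For Il1b (2145), Il6 (104) and Csf3 (127) the array labelled Th2 in experiment 3 lay above the array labelled M/M. Tnf was dim throughout, at 24.5, 29.4 and 45.6 with M/M and 23, 32.1 and 3.2 with Th1 cytokines. Spp1, for the matrix protein osteopontin, had a small difference of the same sign in all experiments, −0.48 (unadjusted p = 0.0187) and −0.39 without experiment 3 (unadjusted p = 0.0904).

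Of the 68 measured genes for acute phase proteins, matrix proteases and prostaglandin synthesis, 27 were lower with Th1 than with M/M cytokines in both experiments 1 and 2. In both, 13 were higher. The shares of all probe sets were 21.4% lower and 28.9% higher. The median difference of the 68 without experiment 3 was −0.13. Those more than 2-fold lower in both were 4, namely Lcn2, Mmp13, Mmp3 and Ptgs2, against 0.641% of all probe sets. Lcn2, a secreted protein that binds bacterial siderophores, had signals of 929.9, 501 and 16.6 with M/M and 184, 118 and 6.1 with Th1 cytokines, against 139, 80.4 and 20.7 in control cultures. The Th1 arrays of experiments 1 and 2 were thus near their controls, and the M/M arrays were 5.06 and 4.25 times as high as the Th1 arrays. Lcn2 had a difference of −2.21 without experiment 3 (95% interval −2.72 to −1.70, adjusted p = 0.115) and −1.96 with it. In experiment 3 the arrays labelled Th1 and M/M were both below the control array, and the array labelled Th2 had 343. Cp, for the copper protein ceruloplasmin, had 902, 429.9 and 374 against 717, 277 and 148 and a difference of −0.77 (unadjusted p = 0.0438), which was −0.48 without experiment 3 (95% interval −1.29 to 0.33, unadjusted p = 0.199).

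The collagenase gene Mmp13 had signals of 335, 78.1 and 106 with M/M and 31.5, 14.9 and 8.5 with Th1 cytokines, and 5.51, 3.07 and 4.9 in control cultures. All 3 M/M arrays lay above all 3 Th1 arrays, which was so for 2.72% of all probe sets, and the M/M arrays were 10.7, 5.24 and 12.5 times as high as their partners. Its difference was −3.15 with all experiments (SE 1.04, unadjusted p = 0.00985, adjusted p = 0.903) and −2.90 without experiment 3. In experiment 3 the array labelled Th2 had a higher signal than the array labelled M/M, 479 for Mmp13 and 596 for Mmp3, and the labels of these arrays are in doubt as given above. The stromelysin gene Mmp3 had 972, 109 and 128 against 138, 35 and 19.3, and here the arrays overlapped. The macrophage elastase gene Mmp12 was dimmer, at 48.4, 17.1 and 19.7 against 13.7, 11.3 and 9.7. Timp1, an inhibitor of these proteases, had 1840.5, 914 and 2103 with M/M and 1588, 668 and 929 with Th1 cytokines, a small difference of −0.61 (unadjusted p = 0.0174) that was −0.33 without experiment 3.

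Ptgs2, which encodes cyclooxygenase 2, had signals of 450.4, 149 and 56.1 with M/M and 152, 36.5 and 21.3 with Th1 cytokines, and 56.5, 20.8 and 23.9 in control cultures (S67722_s_at). Its difference was −1.67 (SE 0.53, unadjusted p = 0.00753) and −1.80 without experiment 3 (95% interval −2.88 to −0.72). In experiment 3 the array labelled Th1 lay just below its control, whereas in experiments 1 and 2 the Th1 arrays lay above theirs. The array labelled Th2 had 133.5 in experiment 3, above the array labelled M/M. A second probe set of the gene, L25925_s_at, had the same sign in each experiment but a difference of −0.41 with experiment 3 and −0.23 without it. Pla2g4a, the cytosolic phospholipase that frees arachidonic acid, had 466, 232 and 252 against 227, 174 and 161, with a difference of −0.70 (unadjusted p = 0.0101) and −0.73 without experiment 3. Of the 22 genes of this list, 11 were lower with Th1 cytokines in both experiments 1 and 2 and 3 were higher, against 21.4% and 28.9% of all probe sets. Its median difference without experiment 3 was −0.21, against 0.02 for all probe sets.

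Promoters of 3 M/M side genes are shown for comparison with those above, since each holds letters bound by NF-kappaB, the factor that both mixtures can engage. Capitals mark the NF-kappaB motif, searched on both strands, in the 250 bases before the start (RefSeq, GRCr8). Ccl20 lies at chr9:91836909-91837158 on the plus strand, and Cxcl2 at chr14:17467256-17467505 and Lcn2 at chr3:36081781-36082030 on the minus strand.
Ccl20: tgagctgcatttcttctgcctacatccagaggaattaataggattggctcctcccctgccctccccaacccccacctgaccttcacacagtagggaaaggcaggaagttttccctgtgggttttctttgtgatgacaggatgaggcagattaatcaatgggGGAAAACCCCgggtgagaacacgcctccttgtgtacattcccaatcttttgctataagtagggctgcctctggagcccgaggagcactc
Cxcl2: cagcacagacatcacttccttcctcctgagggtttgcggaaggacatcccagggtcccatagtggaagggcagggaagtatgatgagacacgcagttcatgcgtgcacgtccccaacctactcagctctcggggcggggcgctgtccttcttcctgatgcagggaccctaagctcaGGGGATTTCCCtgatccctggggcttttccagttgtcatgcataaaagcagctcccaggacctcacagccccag
Lcn2: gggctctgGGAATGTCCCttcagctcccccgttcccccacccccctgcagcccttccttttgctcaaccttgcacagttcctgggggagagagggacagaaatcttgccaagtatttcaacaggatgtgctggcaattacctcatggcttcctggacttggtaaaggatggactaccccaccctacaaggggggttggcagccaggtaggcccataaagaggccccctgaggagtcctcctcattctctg

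The NF-kappaB motif stood in 6.33% of all promoters of this length and in 8.22% of those of the array's named genes. It stood in 6 of 36 promoters (16.7%) of genes more than 2-fold lower with Th1 cytokines in experiments 1 and 2, and in 6 of 46 (13%) of those more than 2-fold higher. The motif was thus found on both sides, and Cxcl10 held it as well. The AP-1 letters TGANTCA stood in 6 of 36 (16.7%) on the lower side, Mmp13, Mmp3 and Il1a among them, in 3 of 46 (6.52%) on the higher side and in 5.21% of the named genes.

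TNF-alpha was in both mixtures, and several genes known to respond to it had like signals in experiments 1 and 2. Which cytokine of either mixture raised these genes was not tested. Icam1, an adhesion molecule for leukocytes, had signals of 1863, 1413 and 321 in the Th1 and 1962, 1192 and 3119.9 in the M/M arrays, against 410.1, 171 and 397 in control cultures. Its difference without experiment 3 was 0.0854, with an interval of −0.54 to 0.71, and with it −1.04. Nfkbia, the inhibitor that NF-kappaB itself induces, had 1129, 609 and 86.5 against 1104, 613 and 664, and an interval of −0.32 to 0.34 without experiment 3. Vcam1, another adhesion molecule, had 1504, 521 and 41.7 against 1343, 383 and 2513 (interval −0.70 to 1.31), and the membrane chemokine Cx3cl1 had 1279, 542 and 106 against 1299, 473 and 1652 (interval −0.55 to 0.73). In experiment 3 all 4 genes were near the control level in the array labelled Th1 and well above it in the array labelled M/M, and their differences with experiment 3 lay between −1.77 for Vcam1 and −0.97 for Nfkbia, as for Vcam1 with 41.7, 2513 and 71.6 in control.

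Some NF-kappaB targets still leaned to the M/M side. Sod2, the mitochondrial superoxide dismutase, had 2053, 1122 and 595 with M/M and 1346, 933 and 137 with Th1 cytokines, a difference of −0.996 (unadjusted p = 0.0262) and −0.44 without experiment 3 (95% interval −0.78 to −0.0939). Ier3, an early response gene that affects cell survival, had 894, 873 and 164 against 629.8, 669 and 119. Over the 10 genes of the NF-kappaB feedback and adhesion list the median difference was −0.23, −0.09 and −2.24 in the 3 experiments. In all 3, 4 genes were lower and 0 were higher, against 18.2% and 4.97% of all probe sets. The same 4 were those lower in both experiments 1 and 2. In experiment 3 all 10 were lower, as were 82.3% of all probe sets. Cebpd, a C/EBP factor of the acute phase response, had 1031, 681 and 273 against 447, 317 and 132 and was about 2-fold lower with Th1 cytokines in each experiment, with differences of −1.21, −1.10 and −1.05. Its interval without experiment 3 included 0 (−3.09 to 0.78), while Cebpb had a difference of −0.13 without experiment 3 (−1.05 to 0.78) and −0.57 with it. Of the immediate early factors, Junb had 563, 380.4 and 819.6 against 360.4, 278 and 228 and a difference of −0.98 (unadjusted p = 0.0202), which was −0.55 without experiment 3 (95% interval −1.53 to 0.43, unadjusted p = 0.222). Egr1 had −0.59 without experiment 3 and −0.41 with it.

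**Figure D4:**
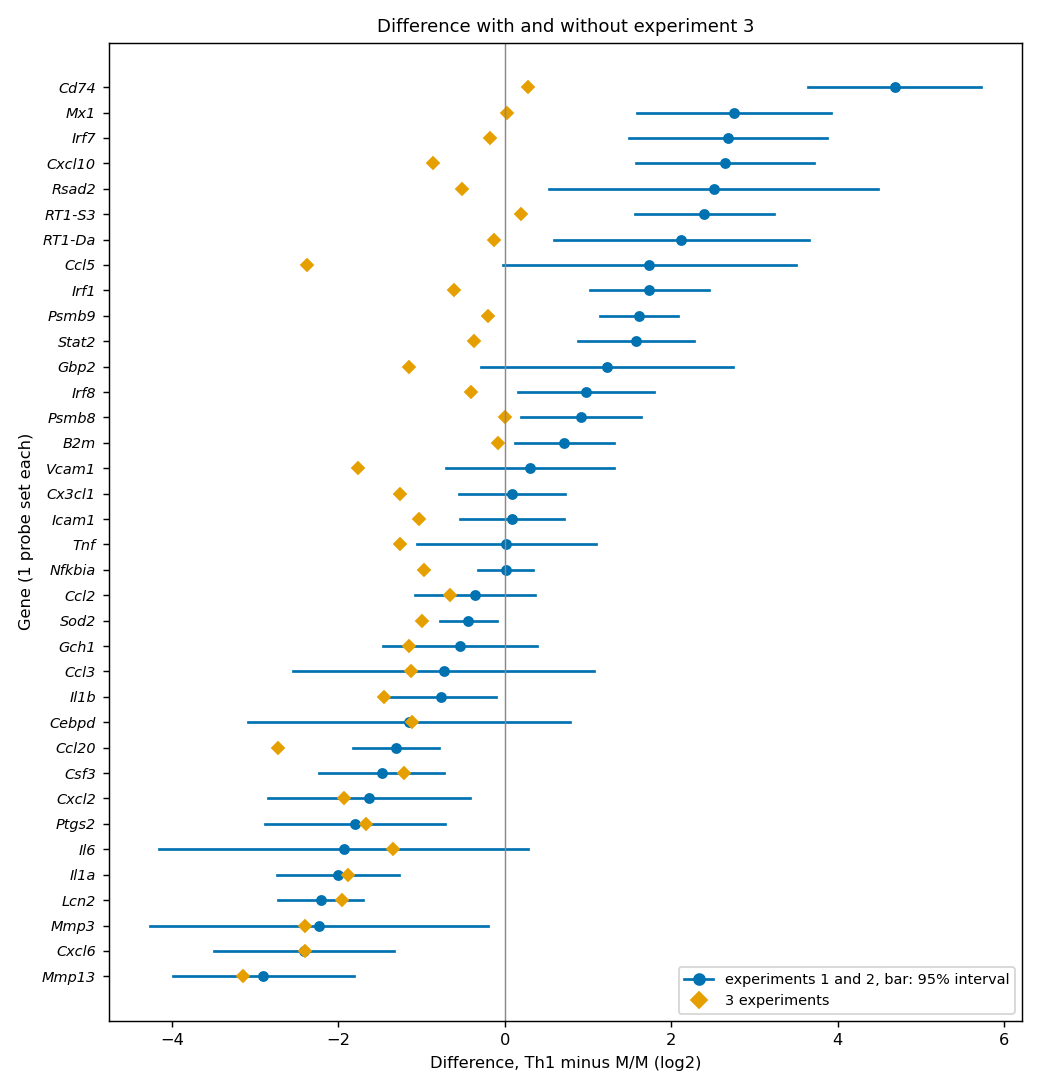
Th1 minus M/M difference (log2) of 36 genes, from experiments 1 and 2 (blue points, bars are 95% intervals of limma) and from all 3 experiments (orange diamonds). When experiment 3 is included, the differences of the interferon genes at the top shrink, as for Cd74 from 4.69 to 0.28, or change sign, as for Cxcl10 from 2.65 to −0.86. Mmp13 at the bottom is −2.90 and −3.15.

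Genes of nitric oxide synthesis gave no clear order. Gch1, which starts the synthesis of the cofactor tetrahydrobiopterin, had 367, 175 and 346 with M/M and 235, 131 and 66.4 with Th1 cytokines, all above the controls of 40.5, 9.71 and 42.8. The inducible synthase gene Nos2 had 142, 42.9 and 324 against 63.4, 69.4 and 12.3 by its probe set U03699complete_seq_at, with opposite signs in experiments 1 and 2. The 4 probe sets of Nos2 had differences from −0.34 to 0.47 without experiment 3. Socs3, a feedback inhibitor of JAK signalling, was dim, at 14.2, 12.6 and 48.9 against 7.73, 7.3 and 18.2, with a difference of −1.03 (unadjusted p = 0.0289) and −0.83 without experiment 3 (unadjusted p = 0.0961). Of the 18 genes of the JAK-STAT feedback list 5 were lower and 2 higher with Th1 cytokines in both experiments 1 and 2, against 21.4% and 28.9% of all probe sets. Cxcl9, Cxcl1 and Socs1 have no probe set with that symbol alone and were not analysed here.

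Genes with the same sign in all 3 experiments, as the arrays are labelled, were also listed. Higher with Th1 than with M/M cytokines in 3 of 3 were 434 probe sets (4.97%), and lower were 1594 (18.2%). The median difference of −0.67 over all probe sets in experiment 3 moves with this count, and its part was not tested. The 12 named genes with the smallest p on the higher side were Slc12a3, Bmp3, Dbp, Camk2d, Vom1r102, Cdh6, Drd1, Gamt, Vch, Gzmn, Prickle2 and Mme. Most of them were dim, such as the growth factor gene Bmp3 with 14.8, 9.75 and 6.5 against 2.04, 4.9 and 3.1, and the ion cotransporter gene Slc12a3 with 17.5, 14.8 and 18.4 against 6.44, 3.74 and 3.7. Dbp, a transcription factor of the circadian clock, had 15.7, 15 and 15.1 against 8.43, 4 and 3.3. Brighter were Prickle2, with 127, 97.1 and 346 against 122, 69.5 and 104, and Gamt, an enzyme of creatine synthesis, with 905, 1631 and 675 against 719.5, 1125 and 526, a small difference of 0.41 (unadjusted p = 0.0404) that was 0.43 without experiment 3.

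On the lower side the 12 were Egr4, Slc16a8, Cxcr5, Tg, Cacna1a, Pmfbp1, Scn8a, Smcp, Srsf10, Ngfr, Ptgs2 and Sf3b1. Egr4 had the smallest p of all probe sets, 0.000274 unadjusted, from signals of 1, 1 and 42.7 in the Th1 and 5.01, 12.1 and 165 in the M/M arrays. However, a brighter probe set of the same gene, rc_AI144873_at, had a difference of −0.16 without experiment 3, and the Th1 signals of 1 in experiments 1 and 2 are a value that many dim probe sets share. Cxcr5 had 1, 1 and 3.2 against 4.3, 3.1 and 11.6, the calcium channel gene Cacna1a had 1, 1.02 and 2.5 against 3.77, 5.97 and 8.9, and the sodium channel gene Scn8a had 1.67, 1.94 and 3.4 against 8.09, 13 and 14.5. Tg had 3.61, 4.48 and 3.5 against 15.7, 17.6 and 18.3. These signals are near the bottom of the scale, which lay lower in experiment 3 than in experiments 1 and 2. Ngfr, the p75 neurotrophin receptor, was bright, at 1165, 1451 and 136 in the Th1 and 1381, 2167 and 342 in the M/M arrays, with a difference of −0.72 (SE 0.21, unadjusted p = 0.00519) and −0.41 without experiment 3. The control arrays had 1086, 1187 and 193. In experiments 1 and 2 the arrays of both mixtures lay above their controls, the M/M arrays by more.

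Of the other lists, ribosomal proteins (41 genes) had median differences of −0.07, −0.04 and −0.59 and housekeeping genes (6) −0.03, 0.06 and −0.44. These followed the median of all probe sets, −0.04, 0.11 and −0.67. Lists of growth factors (35 genes, 0 more than 2-fold apart in both experiments 1 and 2), antioxidants (23), apoptosis regulators (13) and cholesterol synthesis (12) had medians between −0.02 and 0.13 without experiment 3. Receptors of the added cytokines (11) had a median of −0.16, with 5 lower and 0 higher with Th1 cytokines in both experiments, against 21.4% and 28.9% of all probe sets.

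**Figure D5:**
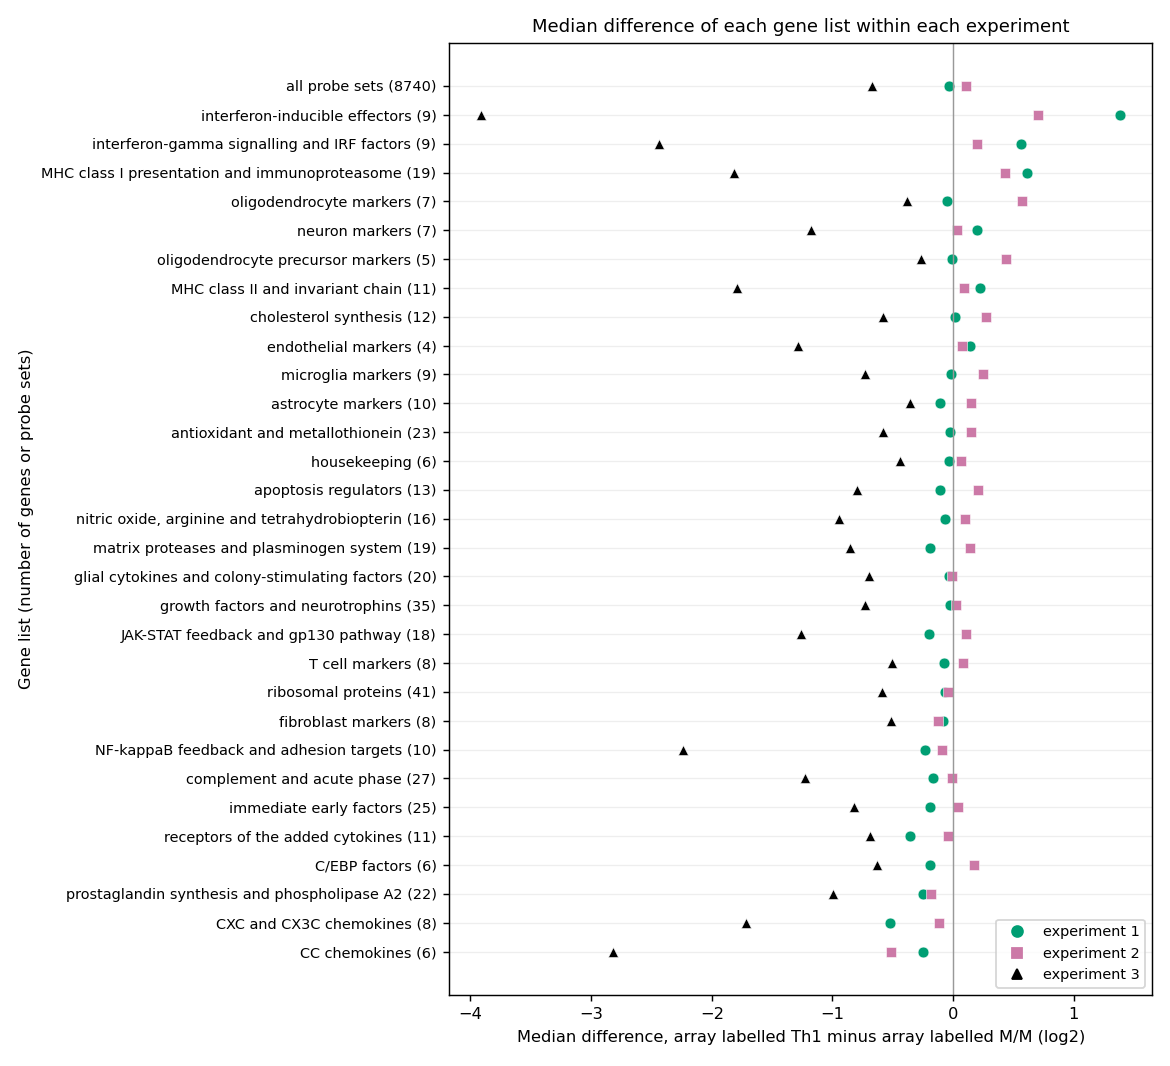
Median Th1 minus M/M difference (log2) of each gene list within experiments 1 (green circle), 2 (pink square) and 3 (black triangle), ordered by the value without experiment 3, with all probe sets at the top. Interferon-inducible effectors lie at 1.39, 0.71 and −3.91, and CC chemokines lie below 0 in each experiment, at −0.25, −0.52 and −2.82.

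Signals of cell type markers were summed in each array. Such a sum is led by its brightest probe sets. It can be compared between arrays but not between cell types, and it does not give shares of cells. Oligodendrocyte markers (7 of 10 measured) summed to 10214.9, 18844.3 and 6088.6 in the Th1 arrays and 11317.5, 16251.6 and 7846.4 in the M/M arrays, and the myelin gene Mbp alone had 2950.2, 6881 and 2357 and 3723, 6365 and 3316. Oligodendrocyte precursor markers (5 of 7) summed to 2121.33, 2354.4 and 991.4 in the Th1 and 2061.62, 1707.32 and 1326.8 in the M/M arrays. Astrocyte markers (10 of 12) summed to between 11174.5 and 17698.4 with Th1 and between 13262.2 and 18288.7 with M/M cytokines, Gfap itself being without a probe set of its own symbol. Microglia markers (9 of 16) summed to 7740.67, 5635.5 and 2959.5 in the Th1 and 8178.52, 5113.38 and 5697.9 in the M/M arrays. Those of experiment 3 differed between the mixtures, beside its interferon genes, and their part in these results was not tested. Within this list Fcgr2b, an inhibitory Fc receptor of microglia, had 994, 358 and 304 with M/M and 391, 175 and 315 with Th1 cytokines, a difference of −1.19 without experiment 3 (95% interval −2.02 to −0.36) and −0.78 with it. Cd53, a membrane protein of leukocytes, had 1317, 1046 and 581 in the Th1 and 1007, 695 and 934 in the M/M arrays. Fibroblast markers (8 of 8) summed to 3326.93, 1253.28 and 1831.4 in the Th1 and 3627.47, 1361.37 and 2901.5 in the M/M arrays. Neuron markers (7 of 10) summed to at most 658.96, T cell markers (8 of 9) to at most 311.88 and endothelial markers (4 of 9) to at most 125.22 in any of the 6 arrays. None of these was tested between the mixtures.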

How the data were processed

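Deposited intensity values of 12 Affymetrix rat genome arrays were used, which the authors calculated from the probes with dChip. The signals are linear, and a normalization between arrays is not given in the sources used here. The low end differed between experiments. In experiment 3 each array had 167 to 403 values below 1 and 30 to 63 equal to 1. The arrays of experiments 1 and 2 had 0 to 3 values below 1 and 200 to 249 equal to 1. Differences of dim probe sets in experiment 3 are therefore not on the same footing as those in experiments 1 and 2. Of 8799 probe sets, 59 control ones were left out. Of the 8740 tested, 7006 carry 1 gene symbol, 308 several and 1426 none in the annotation of the array, and 6985 symbols matched RefSeq (GRCr8) by gene ID. Values below 0.1 were set to 0.1, log2 was taken and arrays were not rescaled. Arrays were grouped and paired by their titles. Th1 and M/M arrays were compared with limma (version 3.58.1, R 4.3.3) over all 12 arrays, where the experiment was the replicate block and the variance prior followed the signal (6 residual and 6.94 prior degrees of freedom), with Benjamini-Hochberg adjustment over all probe sets at 0.05. The 3 pairs of same-experiment arrays deviated together from their group means, with correlations of 0.520, 0.584 and 0.642, and per the methods each experiment used its own cultures. Pairs from different experiments had correlations from −0.577 to 0.357. Deviations from a mean of 3 arrays sum to 0, which by itself lowers the correlations between different experiments. The contrast is thus no test of the pairing.

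The members and lists were chosen with earlier results of these data known. Named were the 12 genes each way with the smallest p among those with 1 sign in 3 of 3 experiments, up to 4 genes per list by p, and fixed interferon, chemokine and NF-kappaB response genes. The genes Irf7, Stat2, Irf8, Mx1, Oas1a, Eif2ak2, Irgm2, RT1-Da, Tap2, B2m, RT1-S3, Ccl3, Il1a, Egr1, Vcam1, Cd53 and Creg1 were added after their values were seen. List members were taken at their brightest probe set. Fits were tested on simulated data. The alternatives were other blocks, samples, scalings, floors, filters and variance priors, an unpaired analysis of variance between the mixtures, and each experiment or array left out. The QRT-PCR measurements were not analysed here.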

Additional observations from a re-analysis of the deposited data

How the results depend on the processing

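In limma, 0 probe sets were called in either direction in each of the other planned fits (no replicate block, a random block, the 6 Th1 and M/M arrays alone, centred or quantile normalized arrays, a floor of 1, an offset of 16, without the dimmest 25%, without a variance trend, and with each experiment or each Th1 or M/M array left out), where 22 to 816 probe sets had an unadjusted p under 0.05. The lowest adjusted p ranged from 0.0585 for the 6 arrays alone to 1 without the replicate block. The 3 pairs of Th1 and M/M arrays deviated together from their group means (correlations of 0.520, 0.584 and 0.642, against −0.577 to 0.357 for pairs from different experiments). Centring on means of 3 arrays by itself lowers the latter. Without the replicate block 0 probe sets were called higher and 0 lower, with 22 in place of 253 at an unadjusted p under 0.05. An unpaired analysis of variance compared the 3 Th1 with the 3 M/M arrays. At the methods' limits of more than 2-fold and p under 0.2 it listed 35 higher and 132 lower, and 0 after Benjamini-Hochberg. The methods themselves compared each mixture with control. Of 3 settings chosen after seeing the data, leaving out experiment 3 and centring the arrays called 8 probe sets higher (2 of Cd74, 2 of RT1-S3, and Tap1, Irgm2, Creg1 and 1 unnamed) and 1 lower (Lcn2, adjusted p = 0.0241). Leaving out experiment 3 and the dimmest 25%, or using an offset of 16 there, called 2 higher, both of Cd74, and 0 lower.

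Signs of differences changed as follows, and the cause was not tested. With centred arrays the difference was 0.0963 for Irf7, 0.19 for Oas1a, 0.13 for Irgm2, 0.13 for RT1-Da, 0.0631 for Psmb9, 0.17 for Tap2, 0.19 for B2m and 0.0295 for Mbp. With quantile normalization it was 0.22 for Irf7, 0.20 for Oas1a, 0.18 for Irgm2, 0.22 for RT1-Da, 0.12 for Psmb9, 0.20 for Tap2 and 0.11 for B2m, and an offset of 16 gave 0.00522 for RT1-Da. With each experiment or array left out in turn it ranged from −2.02 to 1.73 for Irf1, −1.67 to 2.68 for Irf7, −1.48 to 1.58 for Stat2, −1.31 to 0.98 for Irf8, −1.38 to 2.76 for Mx1, −1.40 to 0.89 for Mx2, −2.39 to 2.56 for Rsad2, −1.05 to 1.28 for Oas1a, −1.29 to 1.38 for Eif2ak2, −2.82 to 1.49 for Gbp2, −2.88 to 2.70 for Cxcl10, −4.60 to 1.74 for Ccl5, −1.64 to 2.45 for Irgm2, −2.10 to 4.69 for Cd74, −1.80 to 2.12 for RT1-Da, −2.04 to 1.10 for RT1-Ba, −1.20 to 1.62 for Psmb9, −0.62 to 0.92 for Psmb8, −1.65 to 0.31 for Tap1 (X57523_at), −1.96 to 2.39 for Tap1 (X57523_g_at), −1.14 to 1.43 for Tap2, −0.51 to 0.72 for B2m, −1.11 to 2.40 for RT1-S3, −2.14 to 0.043 for Ccl3, −2.33 to 0.0435 for Il1b, −1.96 to 0.0208 for Tnf, −1.84 to 0.21 for Icam1, −2.98 to 0.40 for Vcam1, −1.52 to 0.0844 for Nfkbia, −1.99 to 0.0874 for Cx3cl1, −0.15 to 0.49 for Cd53, −1.27 to 1.42 for Creg1 and −1.22 to 0.0662 for Jak2. Without replicate 3 alone, 26 of the 72 differences changed sign. Signals near 1 and the 3 arrays of each mixture limit what can be told apart.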
